A study of Mus musculus with 12 samples.

Results

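Polysome RNA was compared with the input RNA of the same cytoplasmic lysates in mouse embryo limb buds that carry the label Mettl14 knockout. The comparison takes the 6 knockout libraries of the 12 in the series, 3 input and 3 polysome. A gene was tested if it reached 1 FPKM (fragments per kilobase of gene model, scaled between libraries) in at least 3 of them. This held for 12943 of 54532 genes. The knockout (cKO) limb buds are labelled Mettl14 flox/flox with the treatment Mettl14 knockout, taken at E12.5. The other 6 libraries, prepared in the same manner from heterozygous (cHet) limb buds labelled Mettl14 wt/flox and used as the control, are used only where the knockout is set against them. Input is cytoplasmic RNA taken before the sucrose gradient, and polysome RNA is the RNA of the polysome fractions of that gradient. Replicates are numbered 1 to 3 as biological replicates, and the polysome and input libraries of 1 number were read as 1 pair. The Cre driver, the number of embryos behind each library and the depletion or selection of RNA classes are not given in the sources used here. METTL14 is the partner subunit of METTL3 in the methyltransferase for N6-methyladenosine (m6A), a common internal mark of mRNA.

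An mRNA under active translation carries several ribosomes and sediments deep in a sucrose gradient, whereas free RNA and small ribonucleoproteins stay near the top. Some mRNA classes share a sequence that sets their ribosome loading. The mRNAs of ribosomal proteins and elongation factors start with a terminal oligopyrimidine (TOP) tract, through which LARP1 and mTORC1 switch them between polysomes and a stored pool, and ferritin mRNAs carry an iron-responsive element (IRE), a hairpin that iron regulatory proteins bind to stop initiation. Replication-dependent histone mRNAs end in a stem-loop in place of a poly(A) tail, and mRNAs of secreted proteins are translated at the endoplasmic reticulum. The libraries are scaled to the same median ratio, so a value here is relative to the median gene and not a share of RNA. In bulk RNA fewer cells of a type and less RNA per cell cannot be told apart.

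The knockout libraries held 17863321 to 26063921 assigned reads. Along the first principal component of all 12 libraries of the series, which carried 51.9% of their variance, the cKO inputs lay at -41.5 to -39.5 and cKO polysome replicates 2 and 3 at 35.5 and 45.0, but cKO polysome replicate 1 lay at 3.97, between the fractions. Input replicate 3 stood apart on the second component (17.1% of the variance), at -63.0 against -23.0 to 10.2 in the other cKO libraries. Mettl14 itself had 2.60, 3.32 and 1.26 FPKM in cKO input replicates 1 to 3 against 4.09, 4.03 and 4.04 FPKM in cHet input. On polysomes it had 2.73, 2.81 and 3.29 FPKM in cKO against 2.83, 3.07 and 3.02 FPKM in cHet, so the genotypes overlapped there. These are whole-gene values and do not resolve the floxed part. The difference between fractions in cKO was 0.38 on the log2 scale (SE 0.33, adjusted p = 0.450) and rested on input replicate 3, since it was -0.08 without that pair. Limb mesenchyme markers summed to 1286 to 1544 FPKM in the inputs and 1631 to 2322 FPKM on polysomes. Globins and erythroid genes summed to 5797 to 14333 FPKM and 10744 to 25952 FPKM, muscle progenitor markers to 517 to 640 FPKM and 406 to 552 FPKM, epidermis markers to 463 to 525 FPKM and 274 to 520 FPKM, endothelium markers to 96.5 to 138 FPKM and 79.1 to 121 FPKM.

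Of the 12943 genes, 738 (5.7%) differed between polysome and input at an adjusted p under 0.05 (limma, blocked on the pair, Benjamini-Hochberg over all genes). Polysome RNA held more of 443 genes (3.42%) and less of 295 (2.28%). Of the 11544 protein-coding genes 393 were higher (3.4%) and 177 lower (1.53%). The median difference over all genes was 0.06, the median of the higher genes 1.04 and that of the lower genes -1.36. In the plot of the fractions, mitochondrial, ribosomal protein and ferritin mRNAs and the noncoding RNA H19 lie below the diagonal. The count of genes past the threshold moved widely with the libraries used. Without polysome replicate 1 and input replicate 3, in a fit with no block, 6895 genes (53.3%) passed, 3446 higher and 3449 lower (26.6% each), among them 731 of the 738, and none of the 738 changed sign. The split between directions also moved, to 460 higher and 474 lower with no block, 430 and 506 after quantile normalization, and 141 and 249 after scaling to protein-coding genes, which moved the median of all genes to -0.06. Leaving out pair 1, 2 or 3 gave 2822, 458 or 1620 genes. Leaving out input replicate 1, 2 or 3 alone, with no block, gave 75, 120 or 2008, and leaving out polysome replicate 1, 2 or 3 gave 2984, 76 or 58. Of the 85 genes called and named here, those same 6 fits kept 34, 50, 81, 84, 31 and 27 past the threshold, and none changed sign. These fits share libraries with the fit that called the genes, and many were picked for fractions without overlap. An unchanged sign is therefore not an independent check of direction. For genes named by that rule or for a small p, fractions without overlap follow in part from the choice. They are given below as a description.

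**Figure D1:**
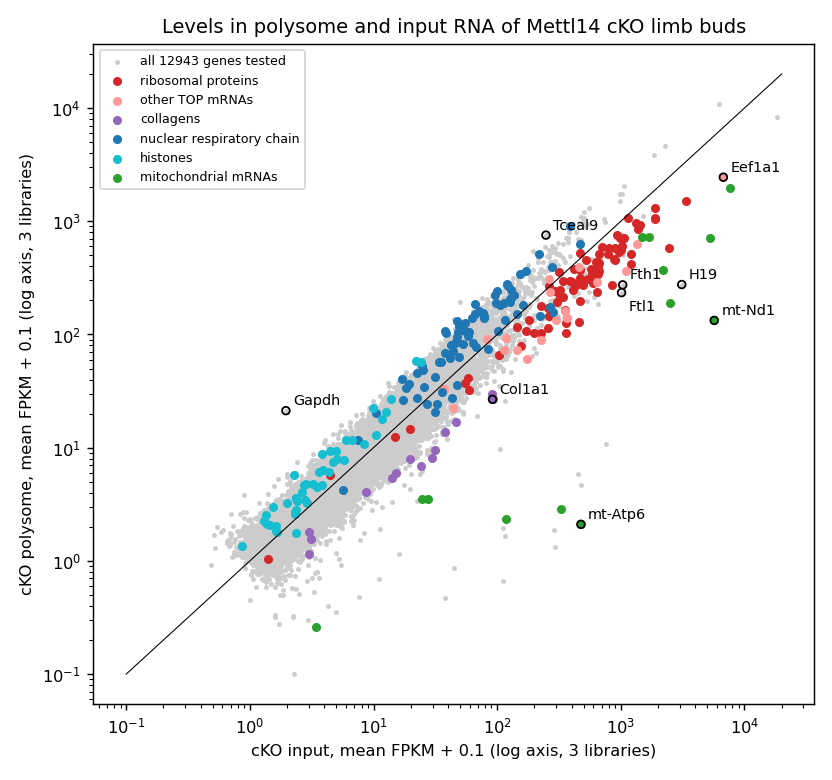
Mean FPKM + 0.1 in cKO polysome RNA (vertical, log axis) against that in cKO input (horizontal, log axis), each over 3 libraries, for the 12943 genes tested, with gene classes in colour and the line of equal values. Mitochondrial mRNAs, most ribosomal protein genes and H19 lie below the line, and most nuclear respiratory chain and histone genes above it.

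Among the 81 ribosomal protein genes tested, which supply the protein part of the cytosolic ribosome, 32 fell and none rose. Over all genes 2.28% fell. With no pair block 22 of the 81 fell. Without the 2 libraries that stood apart 38 fell and 2 rose, in a fit that called 26.6% of all genes in each direction. With all 6 libraries the median difference of the 81 was -0.68, against 0.06 over all genes. It was below 0 in each pair, at -0.92, -0.51 and -0.64. As a share of all reads they went from 8.10%, 7.53% and 9.32% in the inputs of replicates 1 to 3 to 4.42%, 4.97% and 5.59% on polysomes. The inputs thus held 8.32% ± 0.911 and the polysomes 4.99% ± 0.587 (SD, n = 3 each), lower in 3 of 3 pairs. The exact sign-flip test of 3 pairs gave p = 0.25, two-sided, which is the smallest it allows. Ribosomal protein genes have many processed pseudogenes with near-identical sequence, so their reads can be split between loci and single values are uncertain.

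The 5′ ends of 4 TOP mRNAs whose models start with a pyrimidine run are printed to show the tract. Each line gives the first bases of the GENCODE M21 transcript model on GRCm38 (the same assembly as mm10), 5′ to 3′, with the starting pyrimidine run in capitals.
Pabpc1, chr15:36608949-36608973, minus strand, 5′ UTR: CCCCTTCTCCCCggcggttagtgct
Rack1, chr11:48800360-48800384, plus strand, 5′ UTR: CTTTTTCTCCacagggtcgtggtgg
Eif3f, chr7:108934417-108934441, plus strand, 5′ UTR and start of the coding sequence: CTCTTTCTCggcaagatggcttctc
Rpl4, chr9:64173375-64173399, plus strand, 5′ end: CTTTTCCTgtgggagcagccgggta
Cox6b1, chr7:30626127-30626151, minus strand, 5′ end: CTCTCgcagcttccggccagtcgga
The last of these, of a respiratory chain subunit, is printed because it starts with the same kind of run and moved the other way, as given with its class. Annotated starts are models, not mapped ends. A C followed by at least 4 pyrimidines at the model's first base occurred in 274 of 11508 transcripts (2.38%), in 8 of 81 ribosomal protein genes (9.88%) and in 3 of the 18 other TOP genes (16.7%), so the models hold the tract of only a minority of either class. Ribosomal protein genes with it had a median difference of -0.68 and those without it -0.67, and over all 274 transcripts with it the median was -0.04, with 7 higher and 11 lower.

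Rplp0, the stalk protein of the large ribosomal subunit, had 2366, 1963 and 2990 FPKM in the inputs and 542, 556 and 653 FPKM on polysomes, a log2 difference of -2.05 (SE 0.14, adjusted p = 0.00171). Rps4x, a small subunit protein, had 1340, 1101 and 1218 FPKM in the inputs and 392, 382 and 481 FPKM on polysomes (-1.55, SE 0.15, adjusted p = 0.00845). Rpl4, of the large subunit, had 1240, 1129 and 1249 FPKM against 567, 480 and 508 FPKM (-1.22, SE 0.14, adjusted p = 0.0166). In all 3 the lowest input lay well above the highest polysome library. Rpsa, a small subunit protein, fell by 1.61 and Rps7, another, by 1.43 on the log2 scale.

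Of 18 other TOP genes, which encode elongation and initiation factors and associated proteins, 10 fell and none rose, and their median was -1.05. Eef1a1, which brings aminoacyl-tRNA to the ribosome (ENSMUSG00000037742, mm10 chromosome 9), was the most abundant of them. It had 7430, 5643 and 7174 FPKM in the inputs and 2854, 2067 and 2434 FPKM on polysomes, a difference of -1.46 (SE 0.11, adjusted p = 0.00252). Tpt1, the translationally controlled tumour protein, had 1122, 1030 and 1124 FPKM against 306, 377 and 398 FPKM (-1.61, SE 0.16, adjusted p = 0.00806). Pabpc1, the cytoplasmic poly(A)-binding protein whose 5′ end is printed above, had 171, 181 and 168 FPKM against 55.1, 69.9 and 57.0 FPKM (-1.52, SE 0.18, adjusted p = 0.0174). The 2 fractions did not overlap for any of these, which were named for their small p. Eif3f, an initiation factor 3 subunit, fell by 1.33 and Rack1, a scaffold on the small ribosomal subunit, by 1.41. Of 43 translation factors outside the TOP list, with a median of -0.06, the 1 past the threshold was Eif5a, which relieves ribosome stalling, and it rose by 0.91 (adjusted p = 0.0313, or 0.0539 without the pair block). In the fit without the 2 libraries that stood apart 9 of the 43 were higher and 17 lower, with a median of -0.23. That fit called 26.6% of all genes in each direction.

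The ferritin mRNAs were among the most depleted abundant mRNAs. Their IRE is printed with that of Alas2, the erythroid enzyme that starts haem synthesis. Each line is 30 bases of the 5′ UTR of the GENCODE M21 model on GRCm38, 5′ to 3′, with the 6-base loop in capitals.
Fth1, chr19:9982732-9982761, plus strand: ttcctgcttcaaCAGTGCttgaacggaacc
Ftl1, chr7:45459778-45459807, minus strand: gtcttgcttcaaCAGTGTttgaacggaaca
Alas2, chrX:150547458-150552150, plus strand, across an exon junction: ttggttcgtcctCAGTGCagggcaacagga
The search was for the loop CAGTGN closed by a stem of 5 pairs with an unpaired C below it, on the transcript strand. It matched 14 of 11508 transcripts (0.122%), with a median difference of -0.31, none of them higher and 3 lower. The lower ones included Fth1 and Ftl1 themselves. The 14 also included Ftl1-ps1, named as a ferritin pseudogene, whose reads may come from its parent gene. Of the 10 tested genes of the IRE list 4 held it, and their median was -1.43.

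Ftl1, the ferritin light chain (ENSMUSG00000050708), had 923, 871 and 1247 FPKM in the inputs and 202, 207 and 294 FPKM on polysomes, a difference of -2.12 (SE 0.15, adjusted p = 0.00171). Fth1, the heavy chain that oxidises iron (ENSMUSG00000024661), had 914, 993 and 1201 FPKM against 233, 282 and 307 FPKM (-1.92, SE 0.15, adjusted p = 0.00252). Relative to the median gene, both chains of the iron store were thus higher in input than in polysome RNA, by 4.34-fold for Ftl1 and 3.78-fold for Fth1. Alas2 had 8.66, 25.5 and 18.1 FPKM against 7.51, 14.6 and 6.95 FPKM, which overlapped, and did not pass (-0.79, adjusted p = 0.1003). Over the 10 listed IRE genes, 2 fell, none rose and the median was -0.38.

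RNAs of the mitochondrial genome, which are translated by mitochondrial and not by cytosolic ribosomes, were the most strongly depleted class. Their share of all reads went from 4.85%, 3.27% and 2.30% in the inputs to 0.344%, 1.09% and 0.560% on polysomes, lower in 3 of 3 pairs. Of the 13 mitochondrial mRNAs 11 fell, with a median of -2.97 and pair medians of -4.71, -2.17 and -2.43. The drop was unequal within the class. mt-Atp6, an ATP synthase subunit, had 974, 341 and 111 FPKM in the inputs and 1.17, 2.64 and 2.20 FPKM on polysomes (-7.38, SE 0.65, adjusted p = 0.00493). mt-Nd1, a complex I subunit, had 8261, 5140 and 3674 FPKM against 88.4, 171 and 140.3 FPKM (-5.39, SE 0.34, adjusted p = 0.00115). mt-Co1, the catalytic subunit of complex IV, had 10486, 6959 and 5548 FPKM against 987, 3239 and 1660 FPKM (-2.08, SE 0.38, adjusted p = 0.0357), so it stayed the most abundant of the 3 on polysomes. The inputs also differed among themselves, replicate 1 holding the most and replicate 3 the least of each of the 3.

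The other complex IV subunits mt-Co2 and mt-Co3 fell by 6.48 and 5.71, the complex I subunit mt-Nd2 by 3.75 and mt-Cytb, the complex III subunit, by 2.97. The complex I subunits mt-Nd6 and mt-Nd5 did not pass, at -1.24 (adjusted p = 0.110) and -1.03 (adjusted p = 0.145). Both mitochondrial ribosomal RNAs fell, mt-Rnr1 by 6.18 and mt-Rnr2 by 6.20, and so did 6 of 12 mitochondrial tRNAs tested, led by mt-Tn at -7.96 and mt-Tc at -7.52. The protein-coding genes of the nucleus moved from 93.3% ± 1.03 of the reads in input to 97.2% ± 0.548 on polysomes (SD, n = 3 each), so the fall of the mitochondrial share was one part of the change in composition.

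Several noncoding RNAs encoded in the nucleus were lower on polysomes. H19, the imprinted noncoding RNA that is abundant in embryonic mesoderm (ENSMUSG00000000031, mm10 chr7:142575529-142578143, minus strand), had 2731, 2843 and 3758 FPKM in the inputs and 264, 275 and 289 FPKM on polysomes, an 11.2-fold difference (-3.48, SE 0.15, adjusted p = 1.63e-04). Alone it held 0.766% ± 0.128 of input reads and 0.0700% ± 0.00196 of polysome reads (SD, n = 3 each). The neighbouring Igf2, which encodes a secreted growth factor, had 98.9, 117 and 133 FPKM against 21.2, 26.7 and 29.6 FPKM (-2.17, SE 0.18, adjusted p = 0.00398). Rn7sk, the RNA that holds P-TEFb inactive, had 8.19, 16.2 and 23.4 FPKM against 1.34, 1.39 and 0.452 FPKM (-3.80, SE 0.50, adjusted p = 0.0241). For all 3 the highest polysome library lay below the lowest input.

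Of the 14 listed long noncoding RNAs 4 fell and none rose, with a median of -0.63 and pair medians of -0.89, -0.47 and 0.02. The direction of the list did not hold throughout, since the few with at least 5 FPKM in 3 libraries had a median of 0.45. Without the 2 libraries that stood apart 4 were higher and 5 lower (median -0.29). In that fit 26.6% of all genes were called higher and 26.6% lower. Among the 14 were Malat1, a nuclear speckle RNA, which fell by 2.30, Rian, an imprinted noncoding RNA, which fell by 2.02, and Dnm3os, a host of miRNAs, which fell by 2.03. Of 16 snoRNA host genes, whose spliced RNAs are mostly untranslated, 2 fell, Snhg6 by 1.82 and Snhg8 by 1.42, and none rose. Without those 2 libraries 5 were higher and 5 lower, near the shares of all genes in that fit. By annotation class, 12 of 156 lincRNAs fell and 1 rose, and their median of 0.23 was above that of all genes. The balance was the reverse without the 2 libraries, with 50 higher and 18 lower. Of the imprinted genes, a list of 23 added after the largest differences had been seen, 4 fell and 1 rose. The riser was Nnat, a small membrane protein, with 426, 427 and 646 FPKM in the inputs and 817, 984 and 1410.2 FPKM on polysomes (1.09).

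Across protein-coding genes the difference between fractions followed coding length. Over 11508 genes with a transcript model, Spearman's rho between coding length and the log2 difference was -0.61, and it was -0.53, -0.65 and -0.41 in pairs 1, 2 and 3. It is given as a description across genes, which share libraries and are not replicates, with no p. Without the 2 libraries that stood apart it was -0.67, and in the 3 cHet pairs -0.66. Exon number (-0.48) and transcript length (-0.42) had the same sign, and in pair 1 transcript length gave -0.54, as strong as coding length there. The 5′ UTR length gave -0.02 and upstream ATGs 0.07. The 3′ UTR length gave -0.08, with pairs at -0.27, -0.11 and 0.07, and -0.17 without the 2 libraries. GC content gave -0.16 with pairs at 0.24, 0.09 and -0.48, and 0.13 without the 2 libraries, so its sign depended on the libraries, and within the low, middle and high tercile of GC content the coding-length rho was -0.54, -0.67 and -0.66.

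**Figure D2:**
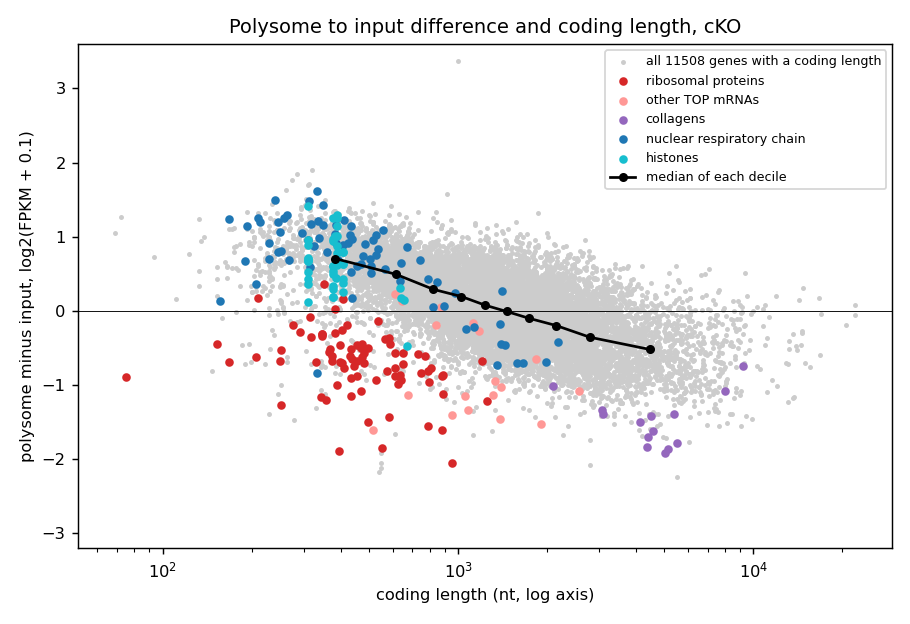
Log2 difference between cKO polysome and input (vertical) against coding length in nt (horizontal, log axis) for 11508 protein-coding genes, with gene classes in colour and the median of each coding-length decile in black. The medians go from 0.70 in the shortest decile to -0.52 in the longest.

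In the shortest decile of genes, with coding sequences of 69 to 513 nt, the median difference was 0.70, and 284 genes rose (24.7%) while 18 fell (1.57%). In the longest decile, of 3354 to 22179 nt, the median was -0.52, no gene rose and 83 fell (7.21%). The span was smallest in pair 1, from 0.42 in the shortest to -0.47 in the longest decile. It was 0.84 to -0.68 in pair 2 and 0.79 to -0.58 in pair 3. The plot of deciles by pair shows pair 1, which holds polysome replicate 1, as the flattest.

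**Figure D3:**
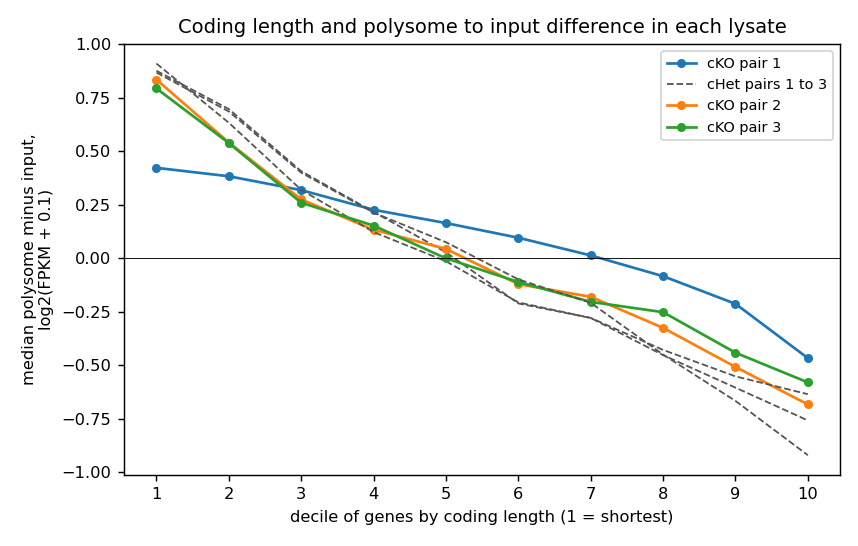
Median log2 difference between polysome and input (vertical) in each decile of coding length (horizontal, 1 is the shortest), with 1 solid line for each cKO pair and dashed lines for the 3 cHet pairs. Each line goes down from short to long genes, and cKO pair 1 spans the least, from 0.42 to -0.47.

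The ribosomal protein genes stood outside this relation. Their median coding length was 453 nt, which lies in the shortest decile with its median of 0.70, yet all 81 lay below the median of their own length decile, by 1.27 at the median. All 18 other TOP genes did so too. Collagens, which have long coding sequences, lay below their decile in 14 of 14 cases, by 1.01 at the median, whereas 38 long nuclear and cytosolic proteins, a list added after the largest differences had been seen, lay on both sides, 18 below and 20 above. Without the members of the ribosomal protein, TOP, matrix, histone, respiratory and mitochondrial ribosome lists, rho was -0.62 over 11156 genes.

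Among short mRNAs, those of nuclear-encoded oxidative phosphorylation subunits were higher on polysomes. Of 75 tested, 33 rose and none fell, with a median of 0.79, while 3.42% of all genes rose. The class was not uniform, since 11 of the 75 had a negative difference. Without the 2 libraries that stood apart 59 were higher and 9 lower, in a fit that called 26.6% of all genes in each direction. Cox6b1, a complex IV subunit whose 5′ end is printed above (ENSMUSG00000036751), had 188, 205 and 257 FPKM in the inputs and 434, 512 and 611 FPKM on polysomes (1.26, SE 0.15, adjusted p = 0.0208). Cox7b, of the same complex, had 69.5, 78.0 and 51.8 FPKM against 152, 191 and 216 FPKM (1.49). Neither overlapped between fractions. Uqcrb, of complex III, rose by 1.62, and Ndufb3 and Ndufa5, of complex I, by 1.48 and 1.42. The 5 members whose model starts with a pyrimidine run (6.67% of the list) had a median of 0.05 and the others 0.80. Against their own coding-length decile, 48 of the 75 lay above the median and 27 below. The same respiratory complexes thus had nuclear-encoded subunits that rose and mitochondrially encoded subunits that fell. Mitochondrial ribosomal proteins, which build the ribosome that translates the latter, numbered 77, of which 16 rose and none fell (median 0.59), Mrpl36 by 1.18 and Mrps12 by 1.17. By coding length, 48 of them lay above the median of their own decile and 28 below, with a median gap of 0.08.

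Histone genes were mostly on the higher side. Of 44 replication-dependent histone genes, which package new DNA, 43 had a positive difference and 7 passed, or 3 without the pair block, with a median of 0.63. They did not exceed other short genes, since 28 of the 44 lay below the median of their own coding-length decile and 16 above. The stem-loop at their 3′ end is printed for the 2 members described, from the GENCODE M21 models on GRCm38, 26 bases of the 3′ UTR, 5′ to 3′, with the stem and loop in capitals.
Hist1h4i, chr13:22040961-22040986, minus strand: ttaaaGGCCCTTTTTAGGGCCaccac
Hist1h2ag, chr13:22042478-22042503, minus strand: acaaaGGCTCTTTTCAGAGCCaccta
The stem-loop was found in 31 of the 44 models (70.5%), in 1 of 10 replacement histone models and in 37 of all 11508 transcripts (0.322%). Members with it had a median of 0.63 and members without it 0.65.

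Hist1h4i, a histone H4 gene, had 20.7, 17.7 and 27.5 FPKM in the inputs and 53.4, 48.3 and 74.6 FPKM on polysomes, which did not overlap (1.41, SE 0.19, adjusted p = 0.0241). Hist1h2ag, a histone H2A gene, had 1.04, 2.97 and 2.58 FPKM against 2.74, 5.61 and 8.43 FPKM, higher in 3 of 3 pairs although replicate 1 on polysomes lay below replicate 2 in the input (1.295, adjusted p = 0.0368, or 0.0988 without the pair block). Histone genes of a type are near copies of each other, and single values are uncertain. Of 10 replacement histones, whose mRNAs are polyadenylated, 5 rose and none fell, with a median of 0.72. Among the 10, 6 lay above the median of their coding-length decile and 4 below. H2afz, the H2A.Z variant, had 391, 408 and 576 FPKM in the inputs and 745, 964 and 1179 FPKM on polysomes (1.07, SE 0.15, adjusted p = 0.0250). H3f3b, a histone H3.3 gene, rose by 1.09. Both histone classes, with and without the stem-loop, were thus on the same side.

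Selenoproteins, which read UGA as selenocysteine, had a median of 0.84, and 7 of 19 rose with none lower. Against their own coding-length decile 13 lay above the median and 6 below, with a median gap of 0.13. Selenom, an endoplasmic reticulum selenoprotein, rose by 1.32, Gpx1, a glutathione peroxidase, by 1.12 (adjusted p = 0.0289, or 0.0548 without the pair block) and Selenoh, a nuclear one, by 1.03. Of 12 polyamine genes 2 rose and none fell (median 0.58), and 9 lay above their decile median and 3 below. Oaz1, the antizyme that is made by a ribosomal frameshift and destroys ornithine decarboxylase, had 333, 335 and 476 FPKM in the inputs and 519, 876 and 1035 FPKM on polysomes (1.05, SE 0.18, adjusted p = 0.0327, or 0.0575 without the pair block). Sat1, which acetylates spermidine for export, had 10.8, 9.63 and 10.1 FPKM against 19.9, 24.1 and 26.8 FPKM (1.20, SE 0.21, adjusted p = 0.0327). The fractions of both genes were separate, with polysome replicate 1 the lowest of its group. Sm and LSm proteins bind spliceosomal and decay RNAs and were listed after the largest differences had been seen. They had 6 of 26 higher and none lower (median 0.51), among them Lsm7 (1.47) and Snrpd3 (1.34). They did not exceed other short genes, since 12 lay above the median of their coding-length decile and 14 below.

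Of the 10 globin and erythroid genes 6 rose and none fell, with a median of 0.80, but none of the 10 passed without the pair block. By coding length, 6 lay above the median of their decile and 4 below, with a median gap of 0.09. Hbb-y, the embryonic beta-like globin, had 3440, 8532 and 6863 FPKM in the inputs and 6889, 14188 and 11277 FPKM on polysomes (0.82, SE 0.11, adjusted p = 0.0241). The fractions overlapped across replicates, since replicate 1 was low in both, and the call depended on the pair block (adjusted p = 0.177 without it). Hba-a1 and Hba-a2, the adult alpha globins, rose by 0.95 and 1.38 (adjusted p = 0.0273 and 0.0279, or 0.184 and 0.0700 without the block), but their sequences are near-identical and the split between them is uncertain. Globin reads made up 0.749% ± 0.322 of input and 1.40% ± 0.588 of polysome RNA (SD, n = 3 each).

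The largest rises were ranked among called genes whose fractions did not overlap and that had a mean of at least 5 FPKM on polysomes. Of the first 10 protein-coding genes of that ranking, all but Gapdh (999 nt) had coding sequences of 234 to 348 nt. After Gapdh, described last, came Tceal9, a small X-linked protein of the TCEAL family, with 313, 307 and 125 FPKM in the inputs and 667, 679 and 917 FPKM on polysomes (1.71, SE 0.35, adjusted p = 0.0418). The low value is that of input replicate 3, and without it and polysome replicate 1 the difference was 1.35. Dbi, the acyl-CoA binding protein, rose by 1.63, Snapc5, a subunit of the snRNA activating complex, by 1.51 and Nrgn, a calmodulin-binding protein, by 1.44. The first 5 noncoding genes of the same ranking were pseudogenes, Gm13430 (1.72), Gm5814 (1.62), Gm9790 (1.55), Llph-ps2 (1.53) and Smt3h2-ps4 (1.49), whose reads may come from their parent genes.

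**Figure D4:**
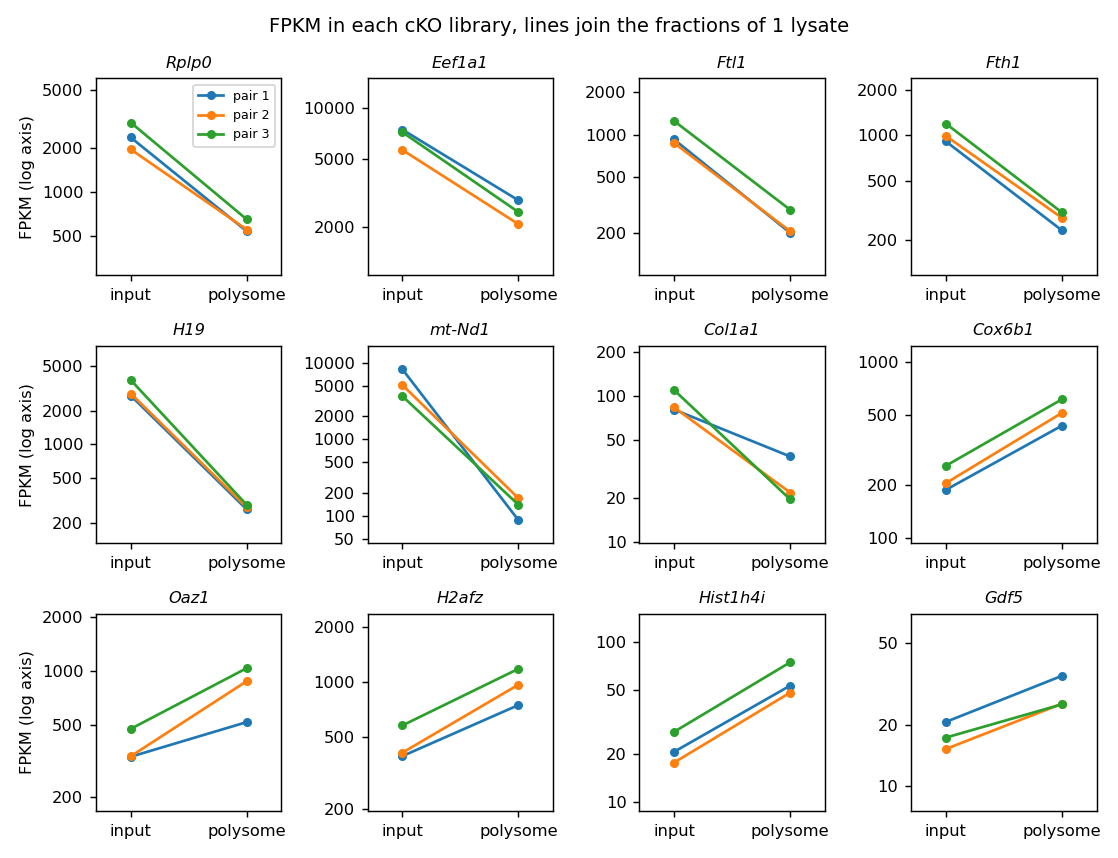
FPKM in each of the 3 input and 3 polysome cKO libraries (vertical, log axis) for 12 genes, with a point for each library and a line joining each pair. Rplp0, Ftl1, H19, mt-Nd1 and Col1a1 are lower and Cox6b1, Hist1h4i and Oaz1 higher on polysomes in all 3 pairs.

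Matrix genes, the class that cartilage formation in the limb depends on, were lower on polysomes. Of 14 fibrillar and basement membrane collagens 12 fell and none rose, with a median of -1.46, while 2.28% of all genes fell. Col1a1, of the type I collagen of mesenchyme and bone (ENSMUSG00000001506), had 80.9, 83.8 and 110.1 FPKM in the inputs and 38.5, 21.8 and 19.6 FPKM on polysomes (-1.83, SE 0.29, adjusted p = 0.0273). Col4a1, of basement membranes, had 26.8, 25.3 and 36.9 FPKM against 11.9, 5.98 and 6.35 FPKM (-1.92, SE 0.29, adjusted p = 0.0273). Col2a1, the main collagen of cartilage and counted with the cartilage matrix list, had 32.4, 24.2 and 35.7 FPKM against 18.97, 6.87 and 7.603 FPKM (-1.59, SE 0.30, adjusted p = 0.0369). In each, polysome replicate 1 was the highest of its group and still below every input. The pair medians of the list were -0.82, -1.71 and -2.08, and collagen genes made up 0.475% ± 0.0648 of input and 0.192% ± 0.0830 of polysome reads (SD, n = 3 each), lower in 3 of 3 pairs.

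Of the 10 cartilage matrix genes tested, Col2a1 among them, 2 fell and none rose, with a median of -0.87, while 2.28% of all genes fell. The list depended on the libraries that stood apart, since its pair medians were -0.07, -1.28 and -1.36. All 10 fell without those libraries, in a fit that called 26.6% of all genes lower. Col11a1, of the fibrils of cartilage, fell by 1.07, and Col9a1, of the fibril surface, did not pass at -0.97 (adjusted p = 0.101). Of 33 other matrix glycoproteins, listed after the largest differences had been seen, 17 fell and none rose (median -1.09), including Nid2, of basement membranes, by 1.69, Tnc, of condensing mesenchyme, by 1.76, Lamc1, a laminin chain, by 1.52 and Fn1, fibronectin, by 1.35. Of 29 long transmembrane receptors and cadherins, listed likewise, 11 fell and none rose (median -1.06), with Notch3 at -1.54, the teneurin Tenm3 at -1.51, Dchs1, a large cadherin of planar polarity, at -1.46 and Fat1, its relative, at -1.16. Against their own coding-length decile, 31 of the 33 glycoproteins lay below the median and 2 above, with a median gap of -0.58. Of the 29 receptors and cadherins 25 lay below and 4 above, with a median gap of -0.54. Of the 38 long nuclear and cytosolic proteins 5 fell and none rose (median -0.46), the nonmuscle myosins Myh9 and Myh10 by 1.19 and 1.08 among them. Nynrin, a retrovirus-derived gene, fell by 2.24 and Igf2r, the receptor that clears IGF2, by 1.33.

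**Figure D5:**
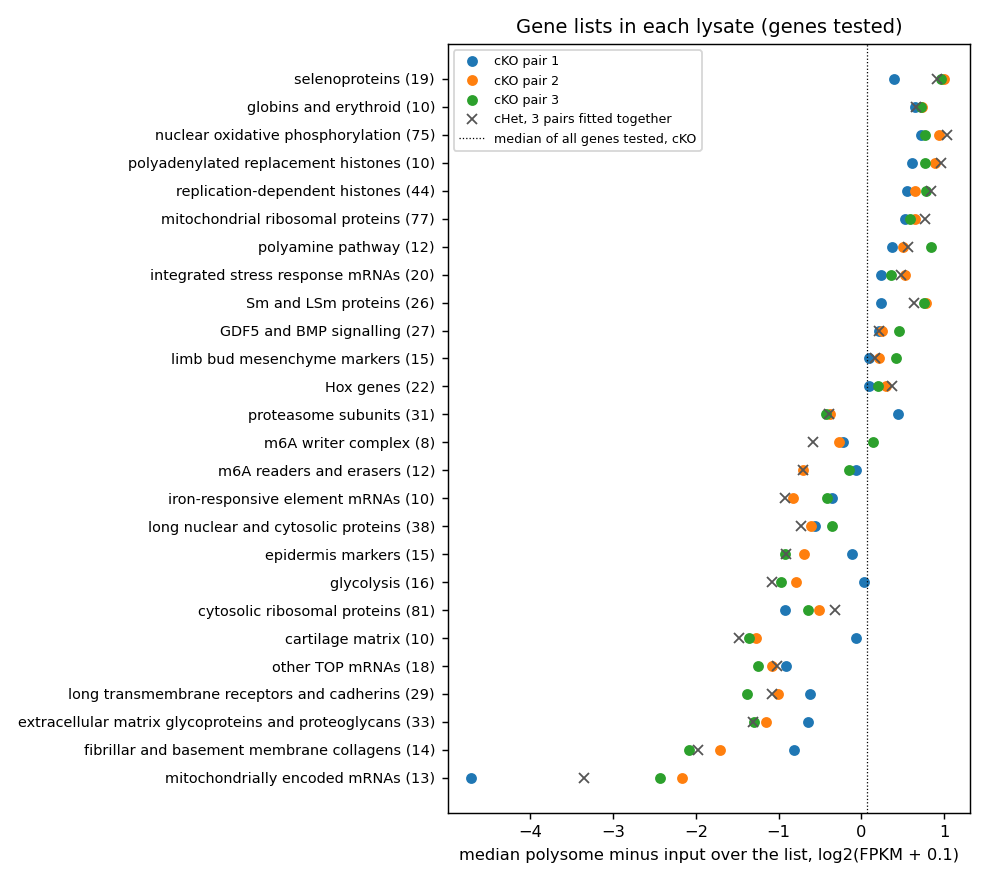
Median log2 difference between polysome and input (horizontal) for each gene list (vertical), with its number of genes tested, 1 point for each cKO pair, a cross for the cHet fit and a dotted line at the median of all genes. Mitochondrially encoded, collagen, TOP and ribosomal protein lists lie below 0 in all 3 pairs, and oxidative phosphorylation, histone, globin and selenoprotein lists above 0.

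The genes named in the title of the series moved less. Gdf5, the growth factor that marks joint interzones and condensations, had 20.6, 15.2 and 17.3 FPKM in the inputs and 34.5, 25.2 and 25.1 FPKM on polysomes. The fractions did not overlap, yet the difference of 0.67 did not pass (SE 0.19, adjusted p = 0.0780). It did without the 2 libraries that stood apart (0.50, adjusted p = 0.0346), in a fit that called 26.6% of all genes higher. Runx1 had 1.09, 0.907 and 0.780 FPKM against 0.904, 1.13 and 1.12 FPKM (0.17, SE 0.29, adjusted p = 0.717), with overlap. Runx2, the transcription factor that drives osteoblasts and hypertrophic cartilage, had 1.36, 1.495 and 1.60 FPKM against 1.10, 1.11 and 1.19 FPKM (-0.36, SE 0.25, adjusted p = 0.359), without overlap. Runx3 reached 1 FPKM in 2 libraries and was not tested, with 1.16, 0.971 and 0.943 FPKM in the inputs and 0.674, 1.16 and 0.977 FPKM on polysomes. Per length, Gdf5 was thus far more abundant than any Runx gene, at 15.2 FPKM or more in every library against at most 1.60 FPKM.

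None of the 27 GDF5 and BMP signalling genes passed (median 0.31), and neither did any of 22 Hox genes (median 0.18), 15 limb mesenchyme markers (median 0.22) or 13 chondrogenic and osteogenic transcription factors (median -0.04). Several lay near the threshold. Hand2, a posterior patterning factor, had a difference of 0.74 (adjusted p = 0.0545), Msx1, a mesenchymal homeobox factor, 0.76 (adjusted p = 0.0608), Id2, a BMP target, 0.86 (adjusted p = 0.0516, or 0.0423 without the pair block) and Bmp4, a BMP ligand, 0.85 (adjusted p = 0.0631). Sox9, the factor that starts chondrogenesis, had a difference of -0.63 (adjusted p = 0.0943), opposite in sign to those 4. Without the 2 libraries that stood apart, 7 limb mesenchyme markers, 8 BMP genes, 5 Hox genes and 2 chondrogenic factors were called higher, and 2, 6, 0 and 5 lower. In that fit 26.6% of all genes were called higher and 26.6% lower, and the 8 and 6 of 27 BMP genes and the 5 of 22 Hox genes were near those shares. No m6A writer (8 tested, median -0.16) or reader or eraser (12 tested, median -0.18) passed with all 6 libraries, and without those 2 libraries 3 writers were lower, as were 8 readers or erasers, with 1 higher.

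The integrated stress response genes, whose mRNAs carry upstream reading frames that control ribosome loading, had 20 members tested, none past the threshold and a median of 0.57. Without the libraries that stood apart 10 were higher and 5 lower, in a fit that called 26.6% of all genes in each direction. Atf4, the transcription factor of that response, had 53.1, 68.3 and 66.9 FPKM in the inputs and 61.7, 131 and 113 FPKM on polysomes (0.64, adjusted p = 0.0980), and the overlap came from polysome replicate 1. Without the 2 libraries its difference was 1.01 (adjusted p = 0.00224). In glycolysis, the proteasome and the epidermis list pair 1 lay apart from the other pairs. Glycolysis genes (16 tested) had pair medians of 0.04, -0.78 and -0.97, proteasome subunits (31 tested) 0.45, -0.38 and -0.43, and epidermis markers (15 tested) -0.12, -0.69 and -0.93. With all 6 libraries the 1 call among these 3 lists was Gapdh, higher. Without the 2 libraries, 11 glycolysis genes, 12 proteasome subunits and 10 epidermis markers were lower and 2, 2 and 0 higher. Macrophage and endothelium markers, 11 of each, had 1 call per list, Fcer1g, an Fc receptor chain, higher by 1.22 and Cdh5, an endothelial cadherin, lower by 1.56. Muscle progenitor (12) and Schwann cell (8) markers had none.

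The shift from input to polysome was then set against the same shift in the heterozygous lysates. Across the 12943 genes the 2 shifts correlated at a Pearson r of 0.87, and 734 of the 738 genes had the same sign in cHet. The median absolute difference was 0.400 in cKO, where polysome replicate 1 lay between the fractions, and 0.571 in cHet. In the test of the difference between the shifts (genotype by fraction, 12 libraries) 0 of 13610 genes passed (0%), with a lowest adjusted p of 0.641 and 896 genes at an unadjusted p under 0.05 (limma). Without the 2 libraries that stood apart 0 passed as well, with a lowest adjusted p of 0.267 and 918 genes at an unadjusted p under 0.05. Collagens had a median shift of -1.46 in cKO and -1.98 in cHet, and ribosomal proteins -0.68 and -0.32, differences which the test did not resolve. Without the 2 libraries that stood apart the cKO medians were -1.65 for collagens and -0.48 for ribosomal proteins, nearer to those of cHet.

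The called gene with the largest rise in cKO, Gapdh, was also among those with the smallest interaction p. It had 1.62, 1.40 and 2.55 FPKM in the cKO inputs and 31.9, 11.8 and 19.6 FPKM on cKO polysomes (3.37, SE 0.30, adjusted p = 0.00508). In cHet it had 4.50, 1.82 and 24.4 FPKM in the inputs and 5.21, 1.46 and 1.18 FPKM on polysomes, a difference of -1.45 that rested on input replicate 3. The difference between the shifts was 4.82 (SE 1.08, adjusted p = 0.641) and did not pass. Gapdh, a glycolytic enzyme, has many near-identical pseudogenes, so how its reads were assigned is uncertain. The others with the smallest p were mt-Tl1 (2.10), Gnl2 (0.89), Lactb (0.80) and Hnrnpm (1.36), with a higher shift in cKO, and Gm12411 (-2.31), Gm13611 (-1.40), Rps15a-ps3 (-1.09) and Rps15a-ps7 (-0.98), with a lower one. None passed, at an adjusted p of 0.641 each, and the named genes with a lower shift in cKO are annotated as pseudogenes.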

How the data were processed

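The authors deposited a table of FPKM for 54532 genes, with gene lengths and coordinates. HISAT2 2.0.5 and featureCounts 1.5.0-p3 were used with mm10, per the submitters' processing notes, and per the labels' protocols an NEB Next Ultra II RNA kit made the libraries. No source used here gives the strandedness, so sense and antisense reads cannot be told apart. FPKM times gene length gave whole reads, within 0.01, for 100% of the values above 0, which set the depth, 10349912 to 30068823 reads over the 12 libraries. All 12 libraries already had the same median ratio (1.02, over 18104 genes detected in every one), so a gene's value is relative to the median gene.

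The analysis used log2(FPKM + 0.1) in limma 3.58.1 (R 4.3.3), with an intensity trend, for genes with at least 1 FPKM in 3 libraries. Differences are on that scale, where the change of low genes is understated. The replicate number was the block, since the design takes both fractions from 1 lysate. Residuals of same-numbered libraries correlated at 0.039, 0.227 and 0.123 across genes. Adjusted p-values are Benjamini-Hochberg, two-sided, with a threshold of 0.05. Nothing in the labels tells separate embryos from separate litters, and p-values measure the spread between these libraries. The interaction used all 12 libraries with the lysate as block. The paired fit and its calls were first tested on simulated reads. These held no lysate effect and no library that stood apart, so the simulation does not cover either.

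Transcript lengths, motifs and sequences came from GENCODE M21 on GRCm38, for 11508 of 11531 nuclear protein-coding genes (99.8%). The genes named are Mettl14, Gdf5 and Runx1 to Runx3, the 10 protein-coding and 5 noncoding genes per direction with the largest called difference without overlap and a mean of at least 5 FPKM, up to 6 members per list by p (every member of the mitochondrial, histone, noncoding, iron, stress response and polyamine lists), and the 5 smallest p per direction of the interaction. A few results under this rule are not reported here. Members and the 34 lists were chosen with earlier results of these data known, and 5 further lists after the largest differences had been seen. Alternatives were other blocks, libraries left out, pseudocounts (0.01 and 1), filters, scalings, voom, robust and untrended variance, a log2 minimum of 1, and removal of a GC trend.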

Additional observations from a re-analysis of the deposited data

How the results depend on the processing

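With all 6 libraries and the pair as block, 738 genes passed, and with no replicate block 934, of which 611 were shared in direction. Of the 85 called genes in the text the fit without the pairing lost 7, given beside them, and it called Id2. Without the 2 libraries that stood apart it was 6895, without pair 1, 2 or 3 it was 2822, 458 or 1620, without input replicate 1, 2 or 3 alone 75, 120 or 2008, and without polysome replicate 1, 2 or 3 alone 2984, 76 or 58. The count was 4479 with all 12 libraries and the lysate as replicate block and 4424 with 4 group means. It was 346 at a minimum of 0.1 FPKM, 1422 at 5 FPKM and 7 with no minimum. Scaling to protein-coding genes gave 390, no intensity trend 72, and removal of the GC trend, chosen after seeing the data, 3300. The cause of these changes was not tested, apart from the number of libraries or genes fitted, which the settings themselves change. Other pseudocounts, quantile normalization, voom and robust variance stayed within 1.5 times of 738. Median-ratio scaling could only repeat the 738, since the libraries already had the same median ratio. A log2 minimum of 1 kept 519 of the same calls. None of the 85 genes changed sign under any of the 26 alternatives that tested it (79 were tested at 5 FPKM and 66 after removal of the GC trend). Median-ratio scaling and the log2 minimum could not change a sign. The other fits share libraries with the fit that called these genes, so they are not an independent check of direction.

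The interaction called 0 genes under each alternative run. Of 933 list medians recomputed, 15 changed sign, all in lists with a median near 0 except the long noncoding RNAs at a minimum of 5 FPKM (0.45). Among uncalled genes some cKO differences between polysome and input, which are not interaction values, also changed sign. That of Mettl14 went to -0.08 without pair 3 and to 0.00 without input replicate 3. Without both libraries that stood apart the cKO difference of Gm12411 went to 0.01 and that of Lactb to -0.04. The number of pairs is what limits the tests of single values, since 3 pairs allow no exact p below 0.25.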
